A study of Mus musculus with 18 samples.

Results

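The Ly49 receptors of mouse natural killer (NK) cells, encoded by the Klra genes, were followed across 3 sorted NK cell subsets and 2 genotypes. Members were all probe sets whose annotation names Klra genes and no others, which gave 10 of the 35399 probe sets on the array. Six-week-old mice of the ICR stock, an outbred stock, carried either Runx3 +/+ (wild type, WT) or Runx3 -/- (knockout, KO), with sex given as male or female. All of them, controls included, had received 2 injections of interleukin-15 complexed with its alpha receptor, 2 days apart, so no group shows resting cells. Splenic NK cells were enriched by negative selection, and NKp46+ cells were sorted as immature CD27+CD11b- cells (CD27), mature cells positive for both proteins (DP) and mature CD27-CD11b+ cells (CD11b). Each of the 6 groups had 3 arrays, named here replicates 1 to 3 by the numbers in the labels. The labels do not say whether arrays of 1 number came from the same animals, or whether animals were pooled. They also give no detail of the Runx3 allele or of the cells in which it was lost, so what is missing outside NK cells is not described here.

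Ly49 receptors are C-type lectin-like proteins encoded in the NK gene complex, and most of them bind MHC class I molecules on other cells. The inhibitory members, such as Ly49A, Ly49C, Ly49G and Ly49I, carry an ITIM, a tyrosine motif that recruits the phosphatase SHP-1. Activating members such as Ly49D and Ly49H lack that motif and signal through the adaptor DAP12. Each NK cell expresses a few of the genes, so that a population is a mosaic, and the genes present and their alleles differ between mouse strains. In bulk RNA, fewer cells that express a receptor and less of its mRNA per cell cannot be told apart.

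Only 6 of the 10 probe sets name 1 gene: Klra2 (Ly49B), Klra3 (Ly49C), Klra5 (Ly49E), Klra6 (Ly49F), Klra8 (Ly49H) and Klra17 (Ly49Q). The other 4 are shared, and are called here by the number of genes they name. The 6-gene set names Klra1 (Ly49A), Klra4 (Ly49D), Klra7 (Ly49G), Klra16, Klra23 and the pseudogene Klra13-ps. The 7-gene set names Klra3, Klra5, Klra6, Klra8, Klra9 (Ly49I), Klra10 and the pseudogene Klra14-ps, and the 5-gene set names Klra3, Klra8, Klra9, Klra10 and Klra14-ps, all of which the 7-gene set also names. The 3-gene set names Klra3, Klra5 and Klra9. Klra1, Klra4, Klra7, Klra9, Klra10, Klra16, Klra23, Klra13-ps and Klra14-ps therefore had no probe set of their own, and a value of a shared set cannot be assigned to 1 of its genes. Probe sequences were not used here, so which of these near-identical genes and alleles each probe set detects in ICR mice was not tested.

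RefSeq promoter windows were matched for 11 of the 15 Klra genes named by the probe sets. The 250 bases before the annotated start are printed for 3 genes whose probe sets were lower in KO cells. These are Klra8, and Klra4 and Klra7 of the 6-gene set, while Klra1 of that set is not printed. Windows are also printed for 2 genes whose own probe sets differed mostly between replicate numbers, Klra3 in both genotypes and Klra5 in KO. The 2 choices overlap, as Klra8 also differed mostly between numbers in WT. The 3- and 7-gene sets, which name Klra3 and Klra5 among others, were lower in KO cells on average. The windows are printed to show how alike they are. On GRCm38.p6, all on the minus strand, they lie at chr6:130129899-130130148 (Klra8), chr6:130067272-130067521 (Klra4), chr6:130233323-130233572 (Klra7), chr6:130337627-130337876 (Klra3) and chr6:129913225-129913474 (Klra5). This is the C57BL/6J reference, not ICR sequence. Capitals mark CAATTTCCTC, the 10-base stretch found in most Klra windows.
Klra8: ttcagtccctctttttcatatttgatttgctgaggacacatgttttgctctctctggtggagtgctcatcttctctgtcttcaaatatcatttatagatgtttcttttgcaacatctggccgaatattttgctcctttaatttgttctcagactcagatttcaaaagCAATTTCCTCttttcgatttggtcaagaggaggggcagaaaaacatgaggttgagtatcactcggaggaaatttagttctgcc
Klra4: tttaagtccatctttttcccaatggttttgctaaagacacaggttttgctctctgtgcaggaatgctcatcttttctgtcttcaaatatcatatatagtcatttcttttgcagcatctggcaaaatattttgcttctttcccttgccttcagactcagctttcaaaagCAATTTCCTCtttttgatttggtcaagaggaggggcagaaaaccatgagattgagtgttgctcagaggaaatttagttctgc
Klra7: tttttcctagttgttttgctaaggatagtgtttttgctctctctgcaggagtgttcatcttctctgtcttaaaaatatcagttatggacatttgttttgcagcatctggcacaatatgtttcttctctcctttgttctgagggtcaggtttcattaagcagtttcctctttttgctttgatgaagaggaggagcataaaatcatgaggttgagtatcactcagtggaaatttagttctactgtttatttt
Klra3: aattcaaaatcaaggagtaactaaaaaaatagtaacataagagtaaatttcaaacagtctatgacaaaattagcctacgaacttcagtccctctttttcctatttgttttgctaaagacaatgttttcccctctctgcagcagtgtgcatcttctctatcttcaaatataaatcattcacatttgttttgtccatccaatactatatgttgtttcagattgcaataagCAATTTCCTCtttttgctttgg
Klra5: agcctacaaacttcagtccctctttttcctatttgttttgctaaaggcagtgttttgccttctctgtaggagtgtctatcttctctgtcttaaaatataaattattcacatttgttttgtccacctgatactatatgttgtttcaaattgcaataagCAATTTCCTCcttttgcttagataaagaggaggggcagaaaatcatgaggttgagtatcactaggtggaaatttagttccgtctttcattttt

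The marked stretch, searched on both strands, was present in 8 of the 11 Klra windows and in 0.110% of all 32851 promoter windows of the same length. It was chosen as the stretch that most Klra windows share, so its frequency is a description. Counted from the base before the listed start as -1, it began at -83 in Klra8 and -82 in Klra4, but at -22 in Klra3, whose printed window therefore reaches further upstream relative to it. Klra7 was among the 3 genes without an exact match. In local alignments the Klra8 window was 85.1% identical to that of Klra4 over 249 aligned columns and 73.3% identical to that of Klra3 over 191 columns. The windows of Klra3 and Klra9 were 96.1% identical over 233 columns, and those of Klra5 and Klra6 92.3% over 221. Runx proteins recognise a short core motif, searched here as TGTGGT or TGCGGT on both strands. It was found in the window of 1 of the 11 genes, Klra1, at positions -201 to -196, and in 18.6% of all windows. The Klra1 window lacks the marked stretch. It was 56.1% identical to that of Klra8 over 132 columns and aligned with that of Klra4 over only 14 columns. A wider pattern, TGNGGT, had been searched first and was narrowed after its matches were seen, because it also takes letters outside that core; it was in 5 of the 11 windows and in 40.1% of all. These are matches of letters in 1 window of each gene.

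Signal differed widely among the members, although levels of different probe sets cannot be set against each other because each has its own probes. Over the 18 arrays the mean log2 value was 11.69 for Klra5, 11.64 for Klra3, 11.47 for the 5-gene set, 11.30 for the 7-gene set, 10.68 for the 3-gene set, 10.21 for the 6-gene set, 9.0 for Klra8 and 8.64 for Klra6. Each of these 8 means was above 73.4% or more of all probe sets. Klra17 (5.86) and Klra2 (5.29) lay below the median of all probe set means, 6.33. Ncr1, which encodes NKp46, lay between 13.45 and 13.81 on all arrays, and Runx3 signal was lower on every KO array than on each WT array of its subset. The Runx3 probe set still gave high signal in KO cells. Its KO means were 10.93, 10.84 and 11.27 in CD27, DP and CD11b cells, against 11.45, 11.48 and 11.76 in WT. On the array of CD11b KO replicate 3, markers of other cells were high. The mean log2 value of 10 neutrophil markers was 9.26 there against 5.21 to 5.29 on the WT CD11b arrays, the 10 markers of dendritic cells and MHC class II averaged 9.26 against 5.96 to 6.07, and 9 of macrophages and monocytes 8.09 against 5.72 to 5.78, while the mean of 10 NK cell markers was 12.49 against 12.82 to 12.90. On CD11b KO replicate 1 the dendritic cell and macrophage means were 6.62 and 6.12, also above the WT CD11b arrays. Not all markers of these lists were raised there. Lyz2, a myeloid gene, was 7.96 against 5.02 to 5.32, and the class II gene H2-Aa 7.27 against 5.19 to 5.43. Cd68 was lower, 8.17 against 8.34 to 8.96, and so was Itgax, 11.08 against 11.47 to 11.98.

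**Figure D1:**
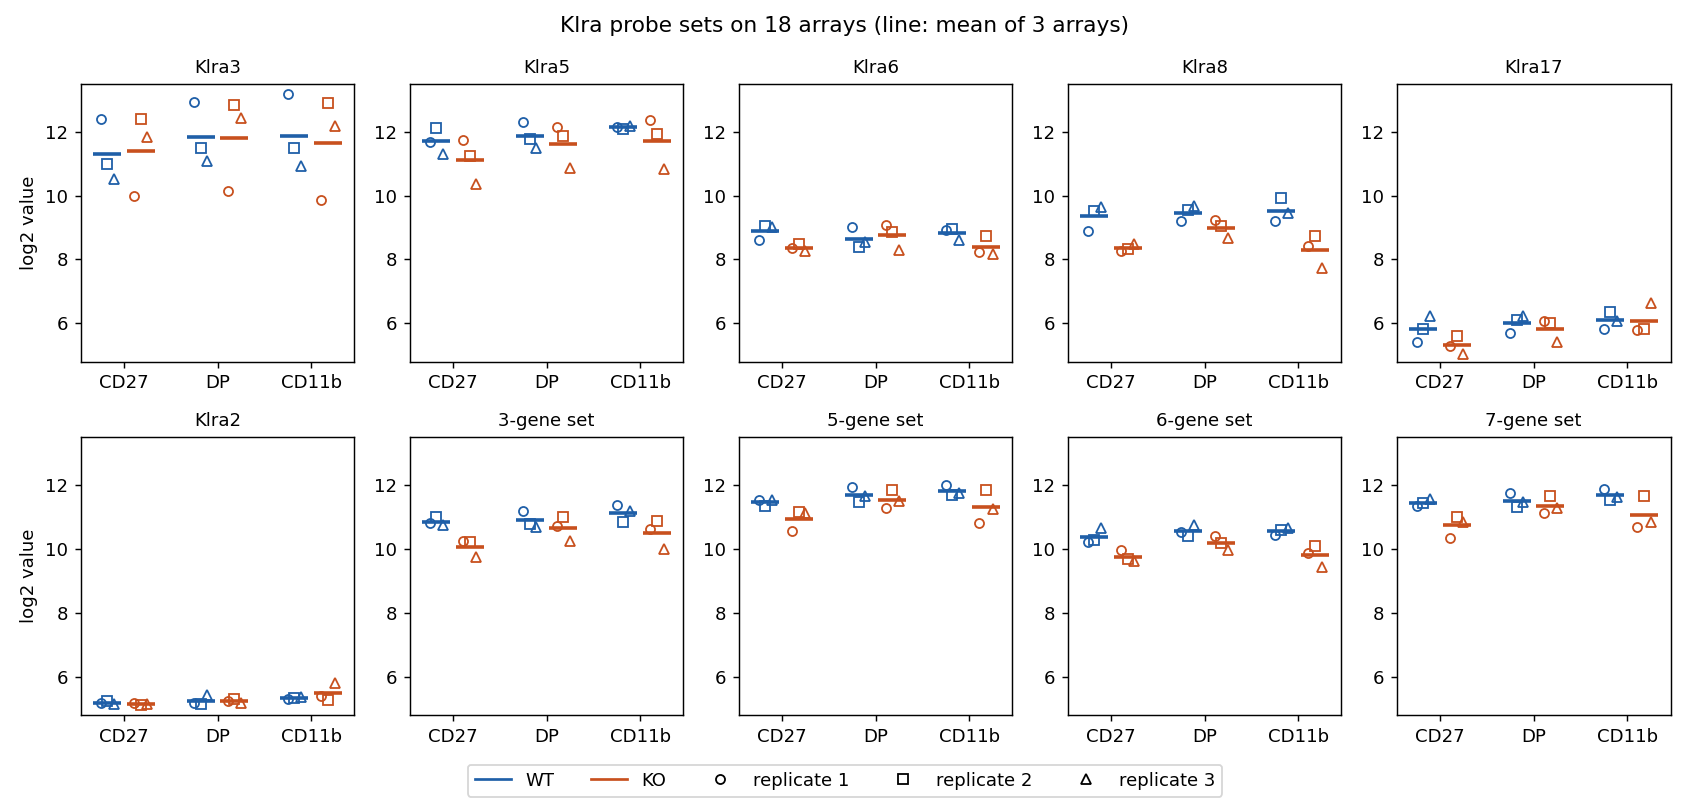
Log2 value (y axis) of the 10 Klra probe sets on all 18 arrays, by sorted subset (x axis), with WT in blue, KO in orange, 1 marker shape for each replicate number and a line at the mean of 3 arrays. Klra8 and the 6-gene set lie lower on KO arrays in the CD27 and CD11b subsets, while the Klra3 arrays run from 10.52 to 13.18 in WT and from 9.86 to 12.90 in KO.

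Among the activating receptors, Klra8 was the only one with a probe set of its own. Ly49H, its product, binds a protein of mouse cytomegalovirus on infected cells. In CD11b cells the Klra8 log2 values were 9.21, 9.91 and 9.45 on the WT arrays and 8.42, 8.72 and 7.72 on the KO arrays. All 3 KO arrays lay below all 3 WT arrays, and KO replicate 3 was lowest. The KO mean was 2.36-fold lower (95% interval 1.61 to 3.46; log2 means 9.52 ± 0.36 and 8.28 ± 0.51, SD, n = 3 each), which passed the threshold of an adjusted p under 0.05 (limma, Benjamini-Hochberg over all probe sets, adjusted p = 0.0299).

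In CD27 cells the Klra8 values were 8.90, 9.51 and 9.64 in WT and 8.28, 8.33 and 8.49 in KO. These groups did not overlap either, and the difference was -0.98 on the log2 scale (95% interval -1.54 to -0.43), but it did not pass over all probe sets (limma adjusted p = 0.105). In DP cells the values were 9.19, 9.54 and 9.66 in WT and 9.22, 9.06 and 8.68 in KO. There KO replicate 1 lay just above WT replicate 1, and the difference was -0.48 (95% interval -1.03 to 0.07, limma adjusted p = 0.587). Whether the genotype difference of Klra8 itself differed among the subsets was tested by the interaction of genotype and subset, which gave an unadjusted p of 0.146 and an adjusted p of 1 (limma F test).

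Averaged over the subsets, Klra8 was 1.87-fold lower in KO cells (95% interval 1.50 to 2.33, limma adjusted p = 0.00222). That interval and p treat the 3 arrays of a replicate number as separate samples. With those arrays averaged first, the adjusted p was 0.166 (limma). Replicate numbers held 74.6% of the Klra8 sum of squares over the WT arrays and 18.4% over the KO arrays. The medians over all probe sets were 21.7% and 30.8%. The Klra8 means over the 3 arrays of a replicate number were 9.10, 9.65 and 9.58 in WT and 8.64, 8.70 and 8.29 in KO, so the 3 KO numbers lay below the 3 WT numbers. Over all probe sets, 12.1% had KO number means wholly below those of WT, and so did 4 of the 10 Klra probe sets (Klra6, Klra8, the 3-gene set and the 6-gene set).

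The 6-gene set covers Klra4, whose product Ly49D is the other well-known DAP12-linked activating receptor, together with the inhibitory receptors Ly49A (Klra1) and Ly49G (Klra7). Its CD11b values were 10.45, 10.60 and 10.65 in WT and 9.87, 10.09 and 9.45 in KO. Every KO array was below every WT array, again with KO replicate 3 lowest. The KO mean was 1.70-fold lower (95% interval 1.32 to 2.18; log2 means 10.57 ± 0.10 and 9.80 ± 0.33, SD, n = 3 each), with an adjusted p of 0.0399 (limma).

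CD27 values of the 6-gene set were 10.21, 10.30 and 10.65 in WT and 9.97, 9.68 and 9.63 in KO, without overlap, a difference of -0.63 that did not pass (limma adjusted p = 0.110). DP values were 10.53, 10.40 and 10.75 in WT and 10.42, 10.19 and 9.98 in KO, where KO replicate 1 lay just above WT replicate 2 and the difference was -0.36 (limma adjusted p = 0.514). Averaged over the subsets the set was 1.50-fold lower in KO cells (95% interval 1.30 to 1.73, limma adjusted p = 0.00219). That fit also treats the arrays of a replicate number as separate samples, and with those averaged first the adjusted p was 0.188 (limma). Over the 18 arrays the 6-gene set and Klra8, which share no annotated gene, had a Pearson r of 0.93, and 0.72 after each group's mean was subtracted; the arrays share genotype, subset and possibly animals.

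Of the 10 Klra probe sets, 2 passed in CD11b cells, Klra8 and the 6-gene set, both lower, where 0.836% of all probe sets passed as lower and 1.29% in either direction. The same 2 were the ones without overlap between the genotypes in CD11b cells, against 11.2% of all probe sets that were wholly lower. Both calls rested on the choice of arrays. Without the array of CD11b KO replicate 3 the Klra8 difference was -0.95 (limma adjusted p = 0.122) and that of the 6-gene set -0.59 (adjusted p = 0.171), and leaving out CD11b WT replicate 2, WT replicate 3 or KO replicate 1 also ended both calls. The mean of 10 ILC1-like markers was higher on the KO CD11b arrays (7.41, 7.61 and 7.82) than on the WT ones (6.76, 6.71 and 6.87). In DP cells, where no Klra probe set passed, it was also higher in KO (8.81, 8.85 and 8.27 against 7.98, 8.02 and 7.92). The genotypes overlapped in CD27 cells. The part of ILC1-like cells, and of the raised markers of other cells on KO replicates 1 and 3, in the Klra differences was not tested.

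**Figure D2:**
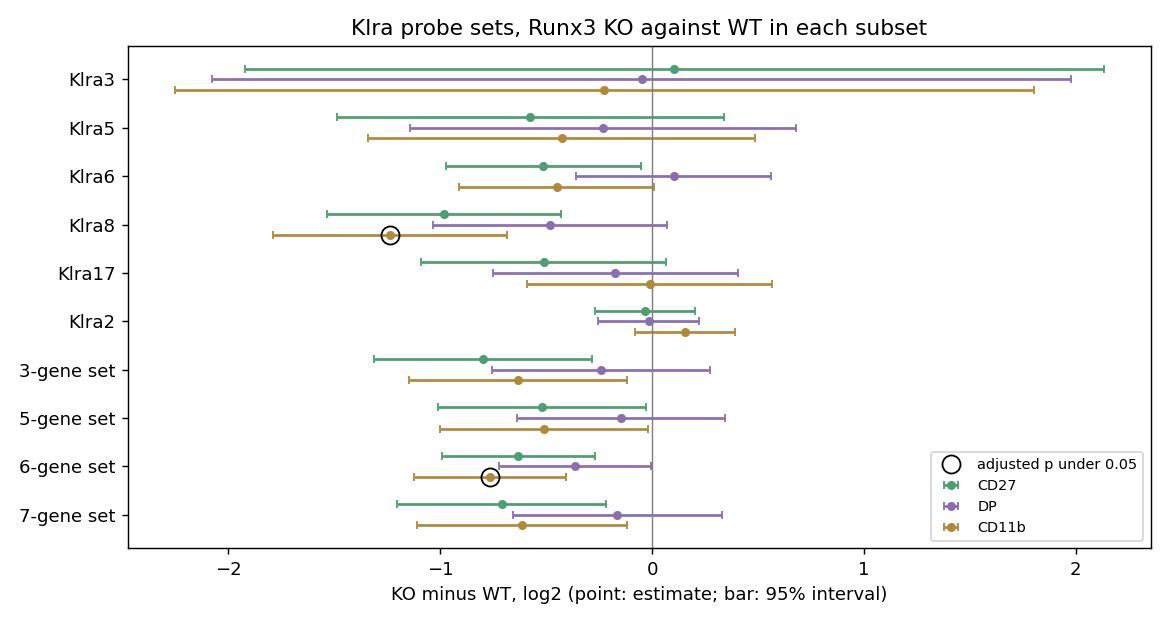
KO minus WT difference of each Klra probe set on the log2 scale (x axis), with 95% intervals from the limma fit, for the CD27, DP and CD11b subsets; rings mark an adjusted p under 0.05. The 2 rings are Klra8 and the 6-gene set in CD11b cells, and the Klra3 intervals reach from about -2 to 2 in each subset.

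In CD27 cells none of the 10 Klra probe sets passed (limma), where 0.907% of all probe sets did. At an unadjusted p under 0.05 there were 6 of 10, against 11.6% of all. Still, 9 of the 10 differences were below 0, against 53.4% of all probe sets, and the median was -0.55 against -0.01 over all. In 6 members (Klra6, Klra8 and the 3-, 5-, 6- and 7-gene sets) all KO arrays lay below all WT arrays, against 10.7% of all probe sets. The shared sets have genes in common, so these members are not independent. On the same arrays the mean of 11 T cell markers was 7.34 to 7.81 in WT and 6.95 to 7.23 in KO. The single markers did not all go this way. Cd3e, a subunit of the T cell receptor complex, was 10.49, 11.09 and 8.14 in WT and 6.39, 6.69 and 7.65 in KO. Cd4 was higher in KO, with 4.95, 5.06 and 4.9 in WT and 6.19, 5.65 and 6.71 in KO, and Il7r overlapped between the genotypes. Itgam, which encodes CD11b, was 10.56, 10.62 and 9.25 in WT and 9.35, 9.4 and 9.74 in KO CD27 cells. Cd27 overlapped between the genotypes, with 11.76, 11.91 and 11.72 in WT and 11.85, 11.71 and 11.32 in KO. The part of these markers, and of the sort, in the Klra differences was not tested.

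In DP cells none of the 10 passed (limma), where 0.395% of all probe sets did, 1 had an unadjusted p under 0.05 (9.64% of all), and the lowest adjusted p was 0.514. No member had KO arrays wholly below WT arrays there, against 8.53% of all probe sets. As in CD27 cells, 9 of the 10 differences were below 0, against 57.4% of all probe sets, with a median of -0.17 against -0.02 over all. In CD11b cells 9 of 10 were also below 0, against 54% of all, with a median of -0.48 against -0.01. Averaged over the subsets, 4 of the 10 passed, all lower (Klra8 and the 6-, 3- and 7-gene sets), where 5.28% of all probe sets passed as lower and 8.08% in either direction. That average treats the 3 arrays of a replicate number as separate samples. With those arrays averaged first, to 3 samples per genotype, none of the 4 passed (limma adjusted p = 0.166 for Klra8 and 0.188 for the 6-gene set), and only 71 of all probe sets did.

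The shared sets that name Klra3 and Klra9, both encoding inhibitory receptors, followed the same order in part. The 3-gene set also names Klra5, the 5-gene set Klra8, and the 7-gene set both. Their values therefore cannot be assigned to Klra3 or Klra9. After each group's mean was subtracted, the 3-gene set had a Pearson r of 0.83 with Klra5 and 0.13 with Klra3. The 3-gene set was 1.47-fold lower in KO cells averaged over the subsets (limma adjusted p = 0.0244). Its CD27 values were 10.83, 11.01 and 10.74 in WT and 10.24, 10.21 and 9.74 in KO, without overlap, and its CD11b values were 11.37, 10.85 and 11.18 in WT and 10.63, 10.88 and 9.99 in KO, where KO replicate 2 lay within the WT range. Without CD27 WT replicate 2 its averaged adjusted p was 0.0533, and without the 3 arrays of KO replicate 3 it was 0.0670 (limma).

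The 7-gene set was 1.41-fold lower averaged over the subsets (limma adjusted p = 0.0342), a call that 11 of the 18 fits without 1 array lost. It was also lost with cyclic loess normalization (adjusted p = 0.0528), with the replicate number as a random block (0.0692) and without the 3 arrays of KO replicate 3 (0.119). Its CD11b values were 11.88, 11.54 and 11.62 in WT and 10.69, 11.65 and 10.86 in KO. KO replicate 2 was again within the WT range, and without that array the CD11b difference was -0.90 and passed (limma adjusted p = 0.0291). The 5-gene set, all of whose genes the 7-gene set names, had CD11b values of 12.01, 11.70 and 11.74 in WT and 10.82, 11.84 and 11.27 in KO, and did not pass on average (limma adjusted p = 0.0890). Both sets were lowest on the arrays of KO replicate 1 in each subset.

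Klra3, whose product Ly49C is an inhibitory receptor for several MHC class I alleles, showed another pattern. Its CD27 values were 12.39, 10.98 and 10.52 in WT and 9.97, 12.40 and 11.83 in KO. The DP values were 12.94, 11.50 and 11.08 in WT and 10.14, 12.83 and 12.41 in KO. In CD11b cells they were 13.18, 11.50 and 10.92 in WT and 9.86, 12.90 and 12.16 in KO. In every subset WT replicate 1 was far above the other WT arrays and KO replicate 1 far below the other KO arrays, and the genotypes overlapped.

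Averaged over the subsets the genotype difference of Klra3 was -0.06 with a 95% interval of -1.23 to 1.11 (limma adjusted p = 0.973), which covers changes of more than 2-fold in either direction. The number means were 12.84, 11.32 and 10.84 in WT and 9.99, 12.71 and 12.13 in KO, a range of 2.00 and of 2.72 on the log2 scale. Within 1 number the 3 subsets spanned only 0.28 to 0.80. Replicate numbers held 90.6% of the Klra3 sum of squares over the 9 WT arrays and 97.3% over the 9 KO arrays, against medians over all probe sets of 21.7% and 30.8%. Only 10 of the 35399 probe sets (0.0283%), Klra3 among them, had ranges between numbers at least this large, by the smaller of the 2 genotypes.

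The numbers with low Xist signal, an RNA made in female cells, were WT replicate 1, KO replicate 1 and KO replicate 2 (5.13 to 5.69, against 12.48 to 13 on the other arrays). Klra3 was highest on the WT replicate 1 and KO replicate 2 arrays and lowest on those of KO replicate 1, so it did not follow Xist. After each group's mean was subtracted, Klra3 had a Pearson r over the 18 arrays of 0.85 with the 5-gene set and 0.73 with the 7-gene set, which name it, but 0.13 with the 3-gene set, which names it too. With Klra8 that r was -0.40. These are descriptions over arrays that share subsets, genotypes and possibly animals.

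**Figure D3:**
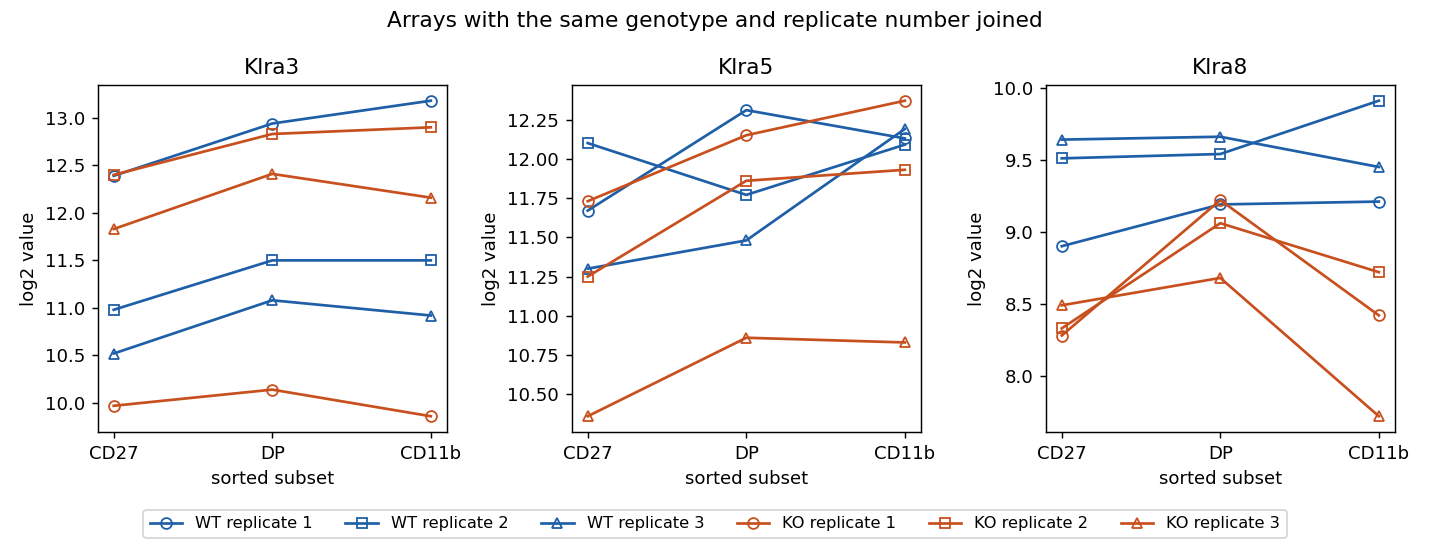
Log2 value (y axis) of Klra3, Klra5 and Klra8 in the 3 sorted subsets (x axis), with arrays of the same genotype and replicate number joined by a line; the y axes differ. The Klra3 lines run nearly level and far apart, the Klra5 line of KO replicate 3 lies at 10.36 to 10.86, below all other arrays, and the Klra8 lines of KO are highest in DP cells.

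Klra5 encodes Ly49E, a receptor known from fetal and immature NK cells. Its CD27 values were 11.67, 12.10 and 11.30 in WT and 11.73, 11.25 and 10.36 in KO. The DP values were 12.31, 11.77 and 11.48 in WT and 12.15, 11.86 and 10.86 in KO, and the CD11b values 12.13, 12.09 and 12.19 in WT and 12.37, 11.93 and 10.83 in KO. KO replicate 3 was the lowest array in every subset, while the other KO arrays lay among or near the WT ones. Replicate numbers held 82.8% of its sum of squares in KO and 25.8% in WT. On these KO replicate 3 arrays the dendritic cell and MHC class II markers averaged 6.64, 7.11 and 9.26, against at most 6.62 on any other array; their part in the Klra5 values was not tested. The averaged genotype difference was -0.41 (95% interval -0.94 to 0.12, limma adjusted p = 0.387). With Xist signal as a covariate, a choice made after the data were seen, it was -0.64 (adjusted p = 0.0375).

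Klra6 (Ly49F) had CD27 values of 8.61, 9.05 and 9.0 in WT and 8.37, 8.49 and 8.26 in KO, without overlap. In DP cells the order was not kept, with 9.03, 8.38 and 8.54 in WT and 9.08, 8.87 and 8.31 in KO. CD11b values were 8.92, 8.96 and 8.61 in WT and 8.24, 8.73 and 8.16 in KO, where KO replicate 2 lay above WT replicate 3. Its differences of -0.51, 0.10 and -0.45 did not pass in any subset (limma adjusted p = 0.356, 0.914 and 0.398).

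**Figure D4:**
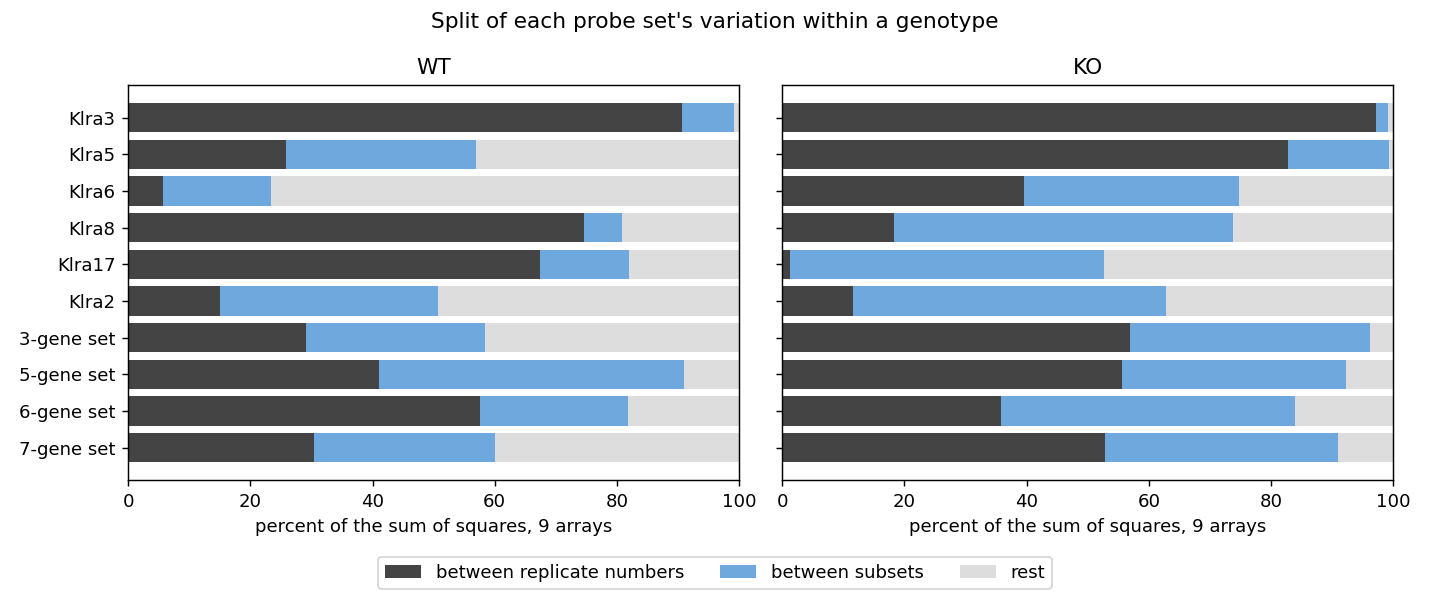
Split of the sum of squares over the 9 arrays of each genotype (x axis, percent) between replicate numbers, between subsets and the rest, for the 10 Klra probe sets. Between numbers lies 90.6% (WT) and 97.3% (KO) of the variation of Klra3, and 82.8% of that of Klra5 in KO. Such shares are not confined to these members. In WT it is 74.6% for Klra8, 67.4% for Klra17 and 57.7% for the 6-gene set (18.4%, 1.32% and 35.9% in KO). In KO it is 57.0%, 55.6% and 52.9% for the 3-, 5- and 7-gene sets (29.1%, 41.0% and 30.4% in WT).

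Klra17 and Klra2 encode Ly49Q and Ly49B, members known from plasmacytoid dendritic cells, neutrophils and other myeloid cells more than from NK cells. Klra17 ranged from 5.04 to 6.63 and Klra2 from 5.12 to 5.82. Both had their highest value on the array of CD11b KO replicate 3, where Siglech, a marker of plasmacytoid dendritic cells, was 10.47 against 5.14 to 5.63 on the other arrays, and S100a8, a neutrophil gene, 10.95 against 4.69 to 5.13. The part of such cells in the 2 values was not tested. Neither gene passed between genotypes in any subset (limma adjusted p of 0.511 or more).

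Between subsets no Klra probe set passed in any of the 6 comparisons (limma). The share of all probe sets that passed was 0.557% for WT DP against CD27, 0.525% for WT CD11b against DP and 5% for WT CD11b against CD27. In KO cells it was 0.0198%, 0.514% and 2.07% for the same 3 comparisons. At an unadjusted p under 0.05 there were no members in the WT comparisons, where 8.25%, 8.36% and 16.8% of all probe sets met it, and 5, 3 and 2 members in KO, where 5.66%, 8.12% and 13% did.

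From CD27 to CD11b cells in WT the members' median difference was 0.25 against 0.02 over all probe sets, and 1 of 10 was below 0, against 44.1% of all. In 2 of them, the 5-gene set and Klra2, all CD11b arrays lay above all CD27 arrays, against 16.4% of all probe sets. For Klra3 this difference was 0.57, higher in 3 of 3 numbers, and with the replicate number as a block, which these 2 groups of arrays bear out as a pairing, its adjusted p was 0.00843 (limma) in place of 0.847. With genotype and number as a random block instead, it was 0.722 and no member passed. That fit uses 1 correlation for all probe sets, 0.206, while numbers held 90.6% of the Klra3 sum of squares in WT. The random block therefore takes out little of the Klra3 differences between numbers, and its result is no check of the fixed block for Klra3. The Klra3 difference within each WT number, at most 0.80, was smaller than the range of 2.00 between the WT numbers.

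In KO cells none of the 10 differences between DP and CD27 cells was below 0, against 42.7% of all probe sets, with a median of 0.51 against 0.02 over all probe sets. Klra8 and the 5-, 6- and 7-gene sets had all DP arrays above all CD27 arrays, against 5.79% of all probe sets, and none passed (limma, lowest adjusted p = 0.792). From DP to CD11b the KO median was -0.20, and Klra8 went from a mean of 8.98 ± 0.28 to 8.28 ± 0.51 (SD, n = 3 each; limma adjusted p = 0.431). From CD27 to CD11b the KO median was 0.33, and 2 members, Klra2 and Klra17, had all CD11b arrays above all CD27 arrays, against 8.9% of all probe sets. The difference of the genotype effect between CD11b and CD27 cells passed in none of the 10 (0.0367% of all; none at an unadjusted p under 0.05, against 6.02%). The interaction over all 3 subsets passed in none either (0.0113% of all; unadjusted p of 0.118 to 0.970, limma).

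Genes that work with Ly49 receptors were taken from lists, and their counts stand against the shares of all probe sets that passed: 0.907% in CD27, 0.395% in DP, 1.29% in CD11b cells and 8.08% on average (5.28% lower). Calls on average, here and in the next paragraph, treat the 3 arrays of a replicate number as separate samples. With those arrays averaged first only 71 of all probe sets passed, and the listed genes were not followed through the alternative fits. Of 5 adaptors of activating receptors, DAP12 (Tyrobp) included, none passed between genotypes in any subset or on average (limma). Of 18 measured genes downstream of activating receptors, none passed within a subset and 3 passed as lower in KO cells on average: Pik3cd (1.27-fold, adjusted p = 0.00216), Bcl10 (1.21-fold, adjusted p = 0.0101) and Vav1 (1.15-fold, adjusted p = 0.0172). Of 10 phosphatases and kinases of ITIM signalling, 1 was lower and 1 higher on average. Ptpn6, which encodes SHP-1, was 1.45-fold lower on average (limma adjusted p = 0.0120). The kinase gene Abl1 was 1.15-fold higher on average and 1.32-fold higher in CD11b cells (limma adjusted p = 0.0151 and 0.0245).

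A list of 20 other lectin receptors of the NK complex was measured in full. In it Klrb1a rose 2.63-fold in KO CD27 cells and 2.02-fold in DP cells (limma adjusted p = 0.00251 and 0.0262), Klrh1 fell 1.67-fold in CD27 cells (adjusted p = 0.00129), and none passed in CD11b cells. On average 2 were higher (Klrb1a and Klrb1f) and 2 lower (Klrh1 and Clec2d). From CD27 to CD11b cells in WT, 2 were higher (Klrg1 and Klrb1a) and 2 lower (Klrb1f and Klrh1), where 5% of all probe sets passed. There Klrg1, an inhibitory receptor of mature NK cells, was 3.29-fold higher and Klrh1 1.44-fold lower (limma adjusted p = 0.0176 and 0.00277), a comparison in which no Klra member passed. Of 9 measured genes of MHC class I ligands and their loading, Tap1 was 1.23-fold higher in KO cells on average (limma adjusted p = 0.0441) and none passed within a subset. Of 19 measured transcription factors of NK development, 3 were higher in KO cells on average (Tox, Prdm1 and Runx1) and 3 lower (Runx3 itself, Eomes and Foxo1). Prdm1, a factor of late NK maturation, was 2.15-fold higher in KO CD27 cells (limma adjusted p = 0.00527), and Tox, a factor of early NK development, 1.82-fold higher in KO CD11b cells (limma adjusted p = 0.0322).

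The genes whose pattern over the 18 arrays was most like a member were taken from 1716 probe sets of other genes. They were Slc30a4 for Klra8 (Pearson r = 0.94), Rasl12 for the 6-gene set (0.92), Izumo4 for the 3-gene set (0.87), Scimp for Klra5 (0.82) and A630001G21Rik for Klra3 (0.81). For Klra2 it was Ccl6 (0.90), a chemokine gene of myeloid cells. The arrays share genotype, subset and possibly animals, and each gene is the best of many, so these values are descriptions.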

How the data were processed

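RNA of sorted splenic NK cells was labelled for Affymetrix arrays, 18 in 6 groups of 3. The deposited values are log2 signals that the authors summarised by RMA, per the submitters' processing notes, which also name Partek; versions and genome build are not given in the sources used here. The series text writes CD11c for 1 subset where the sorting protocol writes CD11b, which is used here. The values (3.91 to 14.96; lowest r between arrays 0.960) were used unfiltered, and their precision is limited by the number of arrays.

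For 35399 probe sets on 18 arrays, group means were fitted jointly with limma 3.58.1 in R 4.3.3 (statmod 1.5.0 for the random block), with eBayes (12 residual degrees of freedom), and p-values were adjusted over all probe sets by Benjamini-Hochberg, with a threshold of 0.05. The code was tested on simulated data. Since nothing states that arrays came from separate animals, p-values measure the spread between arrays, which may be partly technical.

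All Klra probe sets are named; other genes come from lists, with at most 4 passing members per list and comparison, and the most similar gene was sought among probe sets with 1 symbol and an SD of 0.3 or more over group means. Members and lists were chosen with earlier results of these data known. Symbols come from the platform annotation, in which 11989 probe sets have no symbol. Same-numbered arrays deviated together between KO subsets (r = 0.213 to 0.642) and between WT CD11b and both other WT subsets (0.218 to 0.456). The numbers pair those WT samples. In KO, arrays of replicates 1 and 2 also reached an r of 0.287 with each other. There the numbers set replicate 3 apart but do not clearly separate replicates 1 and 2. This pairing comes from the data, not the labels. Between WT CD27 and DP (-0.00943 to 0.440) and between genotypes (-0.0726 to 0.190) the numbers do not pair the samples. Alternatives were other normalization, filter, spread, blocks and left-out arrays.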

Additional observations from a re-analysis of the deposited data

How the results depend on the processing

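The number of Klra probe sets lower in KO CD11b cells, 2 with all arrays, was 0 when only the 2 compared groups were fitted and 0 without the 3 arrays of KO replicate 3. Without 1 array it ranged from 0 to 3. The averaged comparison, 4 with all arrays, gave 0 with the arrays of a number averaged first, 2 without the 3 arrays of KO replicate 3, and 2 to 5 without 1 array. There Klra8 and the 6-gene set passed in all 18 fits without 1 array. With Xist as a covariate, chosen after seeing the data, the CD27 count was 1 in place of 0 (the 3-gene set, log2 difference -0.95, limma adjusted p = 0.00842), and the 3-gene set also passed in CD11b cells. The replicate number as a block raised the count from 0 to 1 in WT CD11b against CD27 and in WT DP against CD27. The latter is Klra3 (0.54, limma adjusted p = 0.0378), where numbers do not pair, and this fixed block changed no other call. The fixed block was fitted over all groups, so the call in WT CD11b against CD27 rests in part on those unpaired numbers too. As a random block, with 1 correlation of 0.206 for all probe sets, the number gave 0 in both comparisons. The random block and cyclic loess each gave 3 in place of 4 in the averaged comparison, where the 7-gene set was lost. No member that passed changed sign under any of its 26 alternatives. Cyclic loess moved the median of all probe sets by at most 0.023 on the log2 scale and changed the split of calls over all probe sets in the averaged comparison from 1870 lower and 992 higher to 1180 and 1320, in CD27 from 230 and 91 to 172 and 148, in CD11b from 296 and 161 to 266 and 234, and in DP from 80 and 60 to 84 and 92. Where a count changed, the cause was not tested. With 3 arrays a group, differences of the size seen in Klra3 between replicate numbers leave wide intervals.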
